A study of Oryza sativa with 4 samples.

Results

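Expansins are plant proteins that let cell walls extend as cells grow, by loosening the contacts between cellulose microfibrils and the surrounding polysaccharides without cutting them. Their genes form the alpha (EXPA), beta (EXPB) and expansin-like (EXLA and EXLB) families. Beta expansins are numerous in grasses and include the group-1 pollen allergens, and expansin-like proteins share the domains of expansins but have no well established loosening activity. Genes were taken here as expansins when a symbol or synonym in the RefSeq rice annotation began with EXPA, EXPB, EXLA or EXLB and a number. The annotation named 49 such genes, of which 29 had at least 1 array probe set tied to that gene alone, out of 17905 genes measured in this way. The measured genes were 14 of 29 EXPA, 11 of 15 EXPB, 4 of 4 EXLA and 0 of 1 EXLB, each followed through its probe set of highest mean log2 intensity. The other 20 had no probe set of their own and are not analysed here. They included EXPA12, EXPA25, EXPA15, EXPA18, EXPA19 and EXPA20, a run on chromosome 3 with no other protein-coding gene between them. The rest were EXPA9, EXPA11, EXPA13, EXPA14, EXPA17, EXPA21, EXPA22, EXPA28, EXPA33, EXPB5, EXPB14, EXPB15, EXPB16 and EXLB1.

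RNA from whole young panicles of rice (Oryza sativa), taken before stage 5 from field-grown plants, was hybridised to 4 Affymetrix arrays. The wild type was ZH11, called WT below. The line ago2-1 carries an antisense construct against OsAGO2, an argonaute that binds small RNAs. Each genotype had 1 array in 2013 and 1 in 2014, so n = 2 per genotype. The promoter of the construct, the number of antisense lines and the number of plants per array are not given in the sources used here. A p-value therefore reflects the spread among arrays, which may be technical. The test used, limma, draws the spread of each probe set toward that of all probe sets. In the main genotype fit it had 2 residual and 40.27 prior degrees of freedom, and in the year fit 1 and 4.48. The arrays of a genotype are of different years, so in a test of the genotypes that spread holds the year difference unless the year is a term. The probe set of AGO2 itself read 0.08 log2 above WT on the array labelled ago2-1 in 2013 and 0.45 above it in 2014, so a lower AGO2 level was not seen, and directions below are those of the labels.

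The arrays of 2014 lay a median of 0.65 log2 above those of 2013 over the sorted values, while the 2 arrays of a year shared a distribution to within 0.12. Levels within a year can therefore be compared as deposited, and the years were compared after quantile scaling, which gives all 4 arrays 1 common distribution. Of 11 measured markers of the young panicle and floral meristem, 10 lay above the array median on all 4 arrays and FZP lay below it on all 4. Of 8 measured tapetum and pollen markers 6 lay above it throughout, and all 4 green tissue markers did. In whole panicles a smaller share of cells of 1 type cannot be told apart from less RNA per cell.

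Set against the median of each array, 18 of the 29 expansin probe sets lay above it on all 4 arrays and 9 lay below it on all 4. EXPA1 and EXPA26 did neither. EXPA26 lay close to the median, from 4.91 to 5.65. EXPA1, from 4.58 to 4.85, was just above it on the ago2-1 array of 2013 alone (4.8512 against 4.8456). In 2014 EXPA1 read 4.58 on WT and 4.79 on ago2-1, against a median of 5.50 on each array. By mean, 34.5% of the expansins lay under the median of all probe sets, against 16.2% of all genes with a probe set of their own. No detection calls were used here, so the dim members may carry background alone, and probe sets of different genes are not ranked by level.

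**Figure D1:**
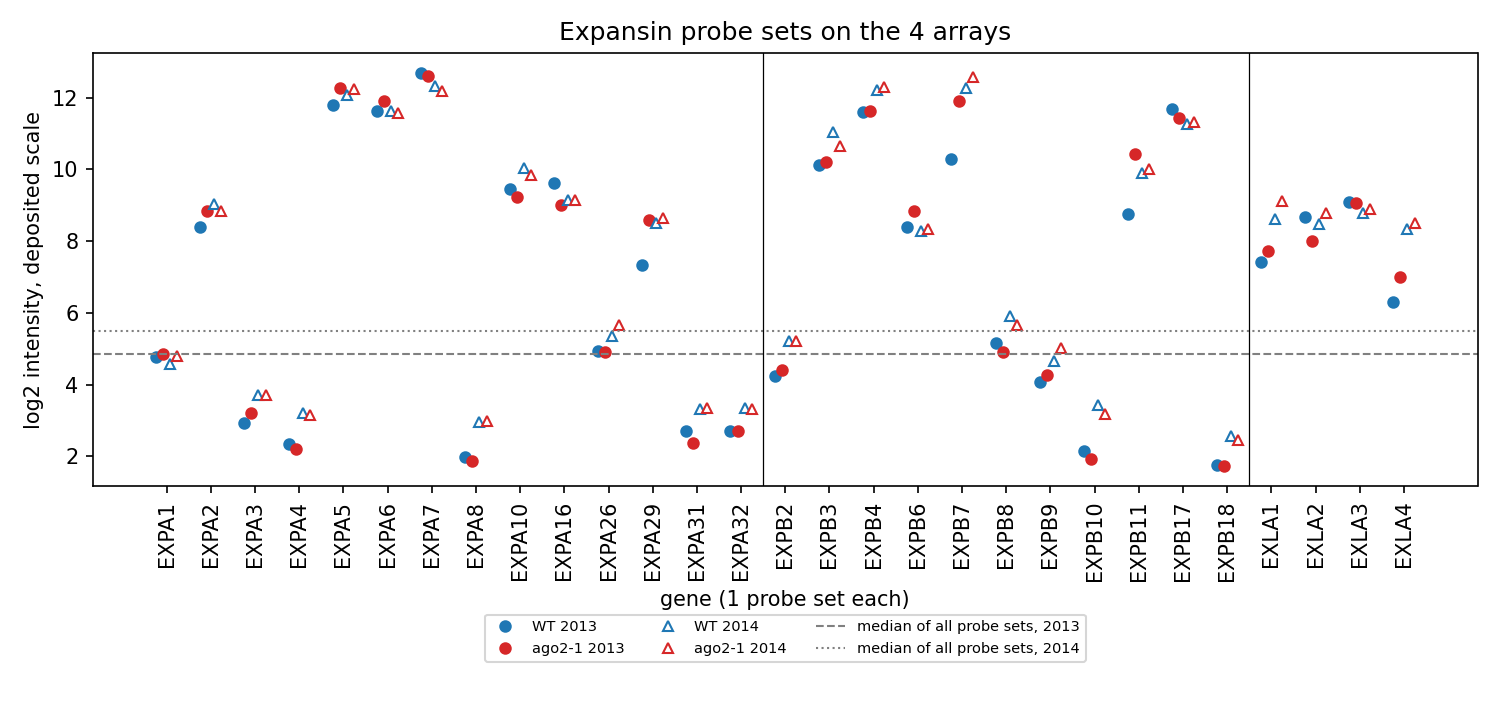
Log2 intensity on the deposited scale (vertical axis) of the 29 measured expansins (horizontal axis), in WT (blue) and ago2-1 (red), with filled circles for 2013 and open triangles for 2014; each point is 1 array, and the horizontal lines mark the median of all probe sets in each year. In the 3 blocks (EXPA, EXPB, EXLA) 18 genes stay above the median on every array, and the dim genes move up in 2014 together with it.

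Among the alpha expansins, EXPA5, EXPA6 and EXPA7 were bright on every array. EXPA7 (LOC4334606) had log2 intensities of 12.70 for WT and 12.62 for ago2-1 in 2013, and 12.33 and 12.18 in 2014. Both arrays of 2014 were the lower ones although the arrays as a whole were brighter in that year. EXPA5 (LOC4330706) lay at 11.78 on WT and 12.28 on ago2-1 in 2013, and at 12.07 and 12.25 in 2014. EXPA6 (LOC4332763) lay at 11.63 and 11.91 in 2013 and at 11.64 and 11.58 in 2014. Neither gene kept the genotypes apart by as much as 1.5-fold in either year.

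EXPA10 (LOC4336776), known in rice as an aluminium-inducible expansin of the root, was also clearly above the array median. Its log2 intensity was 9.46 on WT and 9.23 on ago2-1 in 2013, and 10.03 and 9.86 in 2014. EXPA16 (LOC4341549) stood at 9.62 for WT and 8.9995 for ago2-1 in 2013, and at 9.15 and 9.16 in 2014. EXPA2 (LOC4327568), first studied in the growing internodes of deepwater rice, lay at 8.40 and 8.83 in 2013 and at 9.04 and 8.85 in 2014.

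In contrast, EXPA4 (LOC4339106), which acts in coleoptile and internode growth, and EXPA8 (LOC4327217), which acts in the root, were dim. EXPA4 lay at 2.34 on WT and 2.20 on ago2-1 in 2013 and at 3.21 and 3.16 in 2014. EXPA8 lay at 1.996 and 1.86 in 2013 and at 2.97 and 2.99 in 2014. EXPA3, EXPA31 and EXPA32 were dim on every array as well, with log2 intensities from 2.39 to 3.72.

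Of the beta expansins, EXPB3 (LOC4349349), EXPB4 (LOC4349350), EXPB7 (LOC4331300), EXPB11 (LOC4330213) and EXPB17 (LOC4336479) were above the array median throughout. EXPB4 had nearly the same value in both genotypes, 11.59 on WT and 11.64 on ago2-1 in 2013, and 12.22 and 12.29 in 2014. EXPB3, which has been linked to rice internode elongation, lay at 10.13 and 10.20 in 2013 and at 11.05 and 10.67 in 2014. EXPB17 lay at 11.69 and 11.44 in 2013 and at 11.26 and 11.32 in 2014. The beta expansins EXPB2, EXPB9, EXPB10 and EXPB18 lay below the array median on all 4 arrays, with log2 intensities from 1.72 to 5.22.

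EXPB6, EXPB2, EXPB3 and EXPB4 follow each other on chromosome 10 with no protein-coding gene between them, and EXPB8 and EXPB7 do so on chromosome 3. Between the genotypes in 2013, EXPB7 differed by 1.61 log2 and EXPB8 by −0.27. From 2013 to 2014, after quantile scaling, EXPB6 changed by −0.75 in WT and −1.12 in ago2-1, against 0.04 and 0.03 for EXPB4, 0.34 and −0.13 for EXPB3 and 0.30 and 0.15 for EXPB2. EXPB6 was the one of these 4 that passed between the years, the 95% intervals of EXPB2, EXPB3 and EXPB4 overlapped, and no difference between neighbours was tested. The EXPB4 probe set has an s_at suffix, so it can match transcripts of more than 1 gene, and whether the copies share signal was not tested.

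No expansin differed between the genotypes by the test across all probe sets. With limma, without a block, 0 of 29 passed at an adjusted p of 0.05 (0.0507% of all probe sets and 0.0391% of genes passed), and all 29 had an adjusted p of 1. At an unadjusted p under 0.05 the same fit also gave 0 of 29, against 0.512% of all probe sets and 0.871% of genes. With the year as a block, which takes the shift between the seasons out of the error, 0 of 29 passed as well (adjusted p from 0.52 to 0.97, with 0.107% of all probe sets and 0.112% of genes past the threshold). At an unadjusted p under 0.05 the blocked fit gave 5 of 29, namely EXPB7, EXPB11, EXPA29, EXLA1 and EXLA4, each higher on ago2-1. That share was 17.2%, against 8.77% of all probe sets and 11.9% of genes, where both directions are counted. For EXPB7, EXPB11, EXPA29 and EXLA4 the difference was mostly that of 2013. It was 1.61, 1.67, 1.24 and 0.70 in that year, against 0.30, 0.13, 0.14 and 0.18 in 2014. For EXLA1 it was 0.29 in 2013 and 0.51 in 2014.

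The direction was shared by the years for 18 of the 29 expansins, 12 higher on ago2-1 and 6 lower. Higher in both years were 41.4% of expansins, 29.7% of probe sets and 34.2% of genes. Lower in both were 20.7% of expansins, 27% of probe sets and 30% of genes. The median difference of the expansins was 0.05 log2 in 2013 and 0.04 in 2014, against 0.03 and 0 over all genes. By family the medians were −0.01 and 0.01 for EXPA, 0.07 and 0.05 for EXPB, and 0.13 and 0.24 for EXLA.

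A difference of 1.5-fold or more that kept its direction was seen for 0 of the 29, against 1.01% of all probe sets and 1.61% of genes. After quantile scaling, both ago2-1 arrays lay above both WT arrays for 7 expansins (24.1%, against 11.4% of probe sets and 13.7% of genes), namely EXPA3, EXPA26, EXPA29, EXPB4, EXPB7, EXPB9 and EXPB11. They lay below both for EXPA4, EXPA10 and EXPB8 (10.3%, against 9.87% of probe sets and 12.3% of genes). For the other 19 the genotypes overlapped. No margin was set for these counts or for their background shares. For EXPA26 the arrays of 2013 read 5.2434 on ago2-1 and 5.2429 on WT after scaling, and differed by −0.018 as deposited. For EXPA3, which was dim, the closest scaled values were 3.3291 on ago2-1 and 3.3245 on WT, both of 2014.

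Larger differences were seen in 2013 alone. Within that year 6 of 29 expansins (20.7%) were at least 1.5-fold apart, 4 higher and 2 lower on ago2-1. The background was 7.38% of all probe sets and 11.5% of genes. The 4 higher were 13.8% of expansins, against 3.24% of probe sets and 3.99% of genes, and the 2 lower were 6.9%, against 4.14% and 7.46%. Within 2014 the count was 0 of 29, against 2.67% of probe sets and 3.62% of genes (higher 1.27% and 1.52%, lower 1.4% and 2.1%). The SD over all genes was itself wider in 2013, at 0.50 log2 against 0.29 in 2014. Each year holds 1 array per genotype, so these differences have no replicate and the contrast between the years was not tested.

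**Figure D2:**
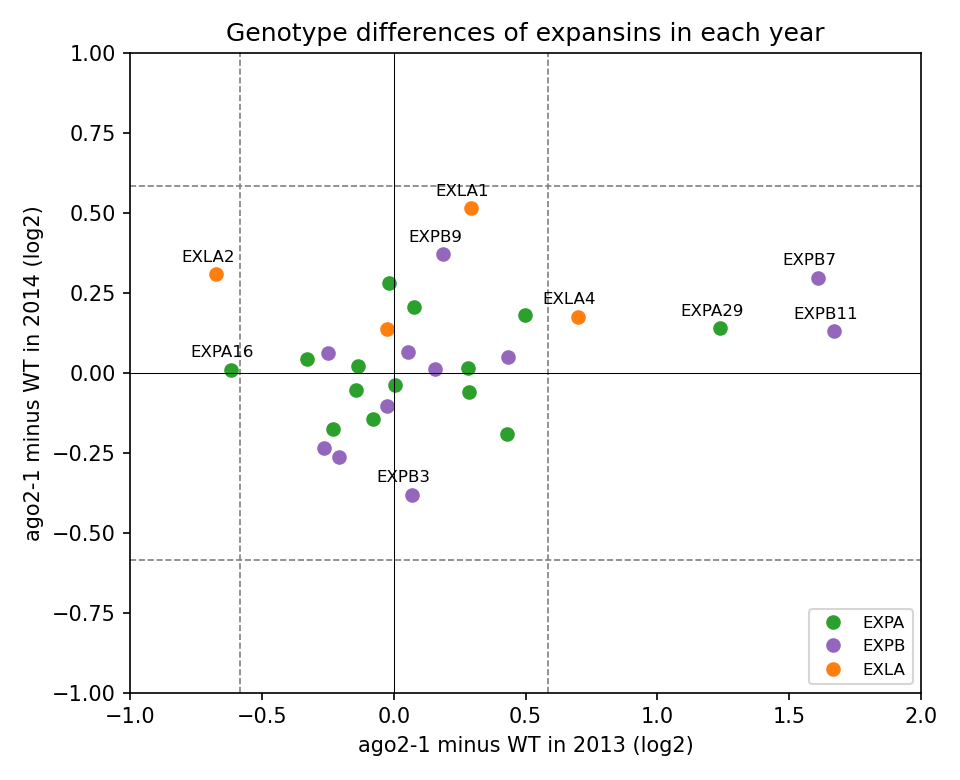
Difference between ago2-1 and WT in log2 intensity in 2013 (horizontal axis) and in 2014 (vertical axis); each point is 1 expansin, coloured by family, and the dashed lines mark 1.5-fold. EXPB7, EXPB11, EXPA29 and EXLA4 lie to the right of the 1.5-fold line of 2013 and EXLA2 and EXPA16 to the left of it, while no point passes the lines of 2014.

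EXPB7 had log2 intensities of 10.30 for WT and 11.91 for ago2-1 in 2013, and of 12.27 and 12.57 in 2014. The WT array of 2013 was thus the low one, and the genotypes differed by 1.61 in 2013 and 0.30 in 2014. The mean difference of 0.95 ± 0.93 (SD of the year differences, n = 2) had a 95% interval from 0.18 to 1.73 in the blocked limma fit, with an adjusted p of 0.52. Without the WT array of 2013, in the fit with no block, the difference was −0.031. That fit leaves the years unbalanced, so the brighter scale of 2014 enters its value.

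EXPB11 lies next to the unmeasured EXPB14 among protein-coding genes. It had 8.76 for WT and 10.43 for ago2-1 in 2013, against 9.90 and 10.03 in 2014. The difference was 1.67 in 2013 and 0.13 in 2014, so that its mean of 0.90 ± 1.09 (SD, n = 2) was smaller than its spread. The adjusted p in the blocked limma fit was 0.57. With no block and without the WT array of 2013, again with the years unbalanced, the difference was 0.33.

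The alpha expansin EXPA29 (LOC4342086) had 7.34 for WT and 8.58 for ago2-1 in 2013, and 8.52 and 8.66 in 2014. On the deposited scale the WT array of 2013 was low and the other arrays were close to each other. The difference was 1.24 in 2013 and 0.14 in 2014, with a mean of 0.69 ± 0.78 (SD, n = 2) and an adjusted p of 0.57 in the blocked limma fit. With no block and the years unbalanced, it was 0.10 when the WT array of 2013 was left out, and 1.28 when that of 2014 was.

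The expansin-like gene EXLA4 (LOC4342109) was higher on ago2-1 by 0.70 in 2013 and 0.18 in 2014. Its levels were 6.30 on WT and 6.99 on ago2-1 in 2013 and 8.33 and 8.51 in 2014, so for this gene both arrays of 2013 were low. After quantile scaling, EXPB7, EXPB11, EXPA29 and EXLA4 were each at least 0.5 log2 lower on the WT array of 2013 than on every other array. That pattern held for 13.8% of expansins and for 1.6% of probe sets and 1.83% of genes, and it was chosen after these values were seen.

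In the opposite direction, EXLA2 (LOC4349265) had 8.68 for WT and 8.002 for ago2-1 in 2013, and 8.47 and 8.78 in 2014. Its differences of −0.67 and 0.31 had opposite signs. Its probe set has an x_at suffix and may match related transcripts. A further probe set of the same gene gave −1.02 and 0.23. EXPA16 differed by −0.62 in 2013 and 0.01 in 2014. For both genes the WT array of 2013 was at least 0.5 log2 higher than every other array after scaling, which held for 6.9% of expansins, 3.01% of probe sets and 5.74% of genes.

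**Figure D3:**
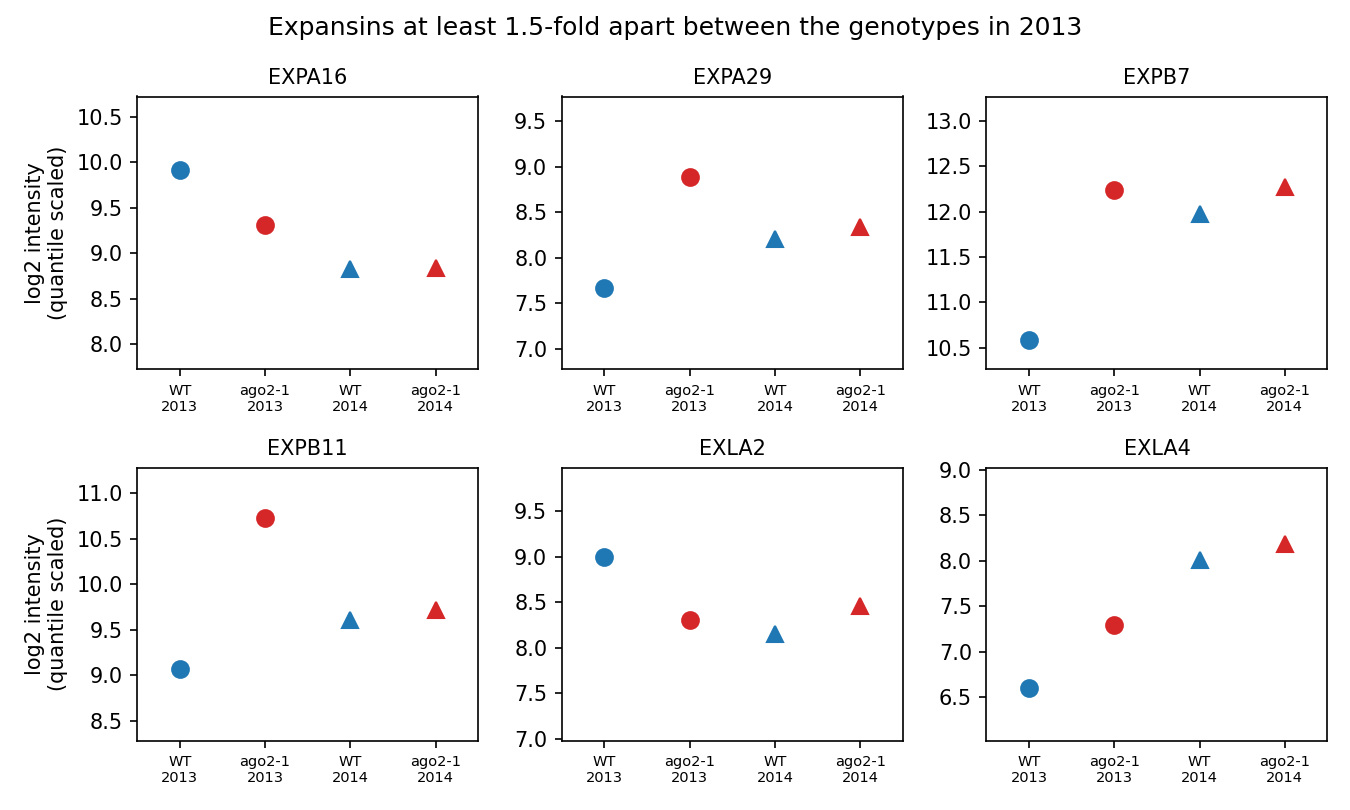
Log2 intensity after quantile scaling (vertical axes, each spanning 3 log2 units) of the 6 expansins at least 1.5-fold apart between the genotypes in 2013; each point is 1 array, WT in blue and ago2-1 in red, circles for 2013 and triangles for 2014. The WT array of 2013 is the lowest point for EXPA29, EXPB7, EXPB11 and EXLA4 and the highest for EXPA16 and EXLA2, and the arrays of 2014 lie close together.

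The lowest mean differences on ago2-1 belonged to EXPA16 (−0.30), EXPB8 (−0.25) and EXPB10 (−0.24), and none passed. With no block and without the WT array of 2013, which leaves the years unbalanced, the difference of EXPA16 was −0.07. EXPB8 (LOC4331298) differed by −0.27 in 2013 and −0.23 in 2014, from 5.17 on WT to 4.90 on ago2-1 and from 5.90 to 5.67. In the blocked limma fit its 95% interval ran from −0.55 to 0.06 (adjusted p = 0.61). EXPB10 (LOC4331325) differed by −0.21 and −0.26, at dim levels of 2.14 and 1.93 in 2013 and 3.43 and 3.17 in 2014. EXLA1 (LOC4331516) was the one expansin with a difference above 0.5 in 2014, with 8.61 on WT and 9.13 on ago2-1, after 7.42 and 7.71 in 2013. Tapetum and pollen markers were lower on ago2-1 in both years for 7 of 8 measured genes, with summed intensities of 6990 on WT and 5120 on ago2-1 in 2013 and 6850 and 5160 in 2014, while young panicle and floral meristem markers were higher on ago2-1 in both years for 8 of 11, with medians of 0.18 and 0.23 and sums of 19500 and 22500 in 2013 and 29800 and 34100 in 2014. With the year as a block, RAFTIN1 was the one marker of these lists to pass (limma adjusted p = 0.0286). Without the block no marker of these lists passed. The part of either list in the expansin values was not tested.

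Between the years, 9 of the 29 expansins changed after quantile scaling. EXLA4 and EXLA1 rose from 2013 to 2014, and EXPA7, EXPB6, EXPB17, EXLA3, EXPA1, EXPA16 and EXPA6 fell (limma with the genotype as a term, adjusted p of 0.05 over all probe sets). The share of 31% called compares with 23.3% of all probe sets and 22% of genes. The rises were 6.9% of expansins, against 12.2% of probe sets and 11.3% of genes. The falls were 24.1%, against 11.1% and 10.8%. Without any test, both arrays of 2014 lay above both of 2013 for EXLA1, EXLA4, EXPA8, EXPB2 and EXPB10 (17.2%, against 34.4% of probe sets and 32.1% of genes), and below them for 11 expansins (37.9%, against 31.2% of both). The growing season and the year of the arrays cannot be told apart.

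EXPA7 fell by 1.04 ± 0.12 (SE, n = 2 arrays per year, limma adjusted p = 0.00792), with −1.01 in WT and −1.08 in ago2-1. Its scaled levels were 13.02 and 12.97 in 2013 and 12.01 and 11.89 in 2014, so the years did not overlap. EXPA1 (LOC4335222) fell by 0.79 ± 0.12 (limma adjusted p = 0.0146), from scaled levels of 5.09 and 5.18 to 4.24 and 4.46. Its mean as deposited lay at percentile 43.8 of all probe sets. Of the other alpha expansins, EXPA16 fell by 0.78 ± 0.18 (0.0341), EXPA6 fell by 0.76 ± 0.15 (0.0226), and EXPA5, at −0.50 ± 0.15, did not pass (0.0593). EXPA5 passed with median centring (0.0479) and with a trend in the prior variance (0.0195). EXPA16 did not pass among probe sets above the median (0.063) or without the genotype term (0.0705). Without the WT array of 2013 its change was −0.47. That fit had no genotype term and left 1 array of 2013, so the genotype enters its value.

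Of the beta expansins, EXPB6 (LOC4349347) fell by 0.94 ± 0.14 (SE, limma adjusted p = 0.0138), from 8.72 on WT and 9.13 on ago2-1 in 2013 to 7.97 and 8.01 in 2014. EXPB17 fell by 0.88 ± 0.13 (0.0137), from 11.98 and 11.75 to 10.97 and 11.01. EXPB7 did not pass, with a change of 1.38 in WT and 0.03 in ago2-1 (adjusted p = 0.154). Its 95% interval ran from −0.08 to 1.48. EXPB7 passed without the ago2-1 array of 2013 (1.53, 0.0174), while without the WT array of 2013 the change was −0.12. EXPB11 also did not pass (0.642), and its changes of 0.53 and −1.02 were opposed. Without the WT array of 2013 the change of EXPB11 was −1.07, and without the ago2-1 array of 2013 it was 0.59. These fits with an array left out had no genotype term and 1 array of 2013, so the genotype enters their values.

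The 4 expansin-like genes went apart. EXLA4 rose by 1.15 ± 0.16 (SE, limma adjusted p = 0.012), by 1.41 in WT and 0.89 in ago2-1. EXLA1 rose by 0.66 ± 0.13 (0.0249), a call lost without the genotype term (0.0905). With 1 array left out in turn, also with no genotype term, its change ranged from 0.41 without the ago2-1 array of 2014 to 0.91 without the WT array of 2014. EXLA3 (LOC4343213) fell by 0.86 ± 0.13 (0.0123), from 9.40 and 9.37 to 8.46 and 8.58. EXLA2 did not pass (0.332), with −0.84 in WT and 0.15 in ago2-1.

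**Figure D4:**
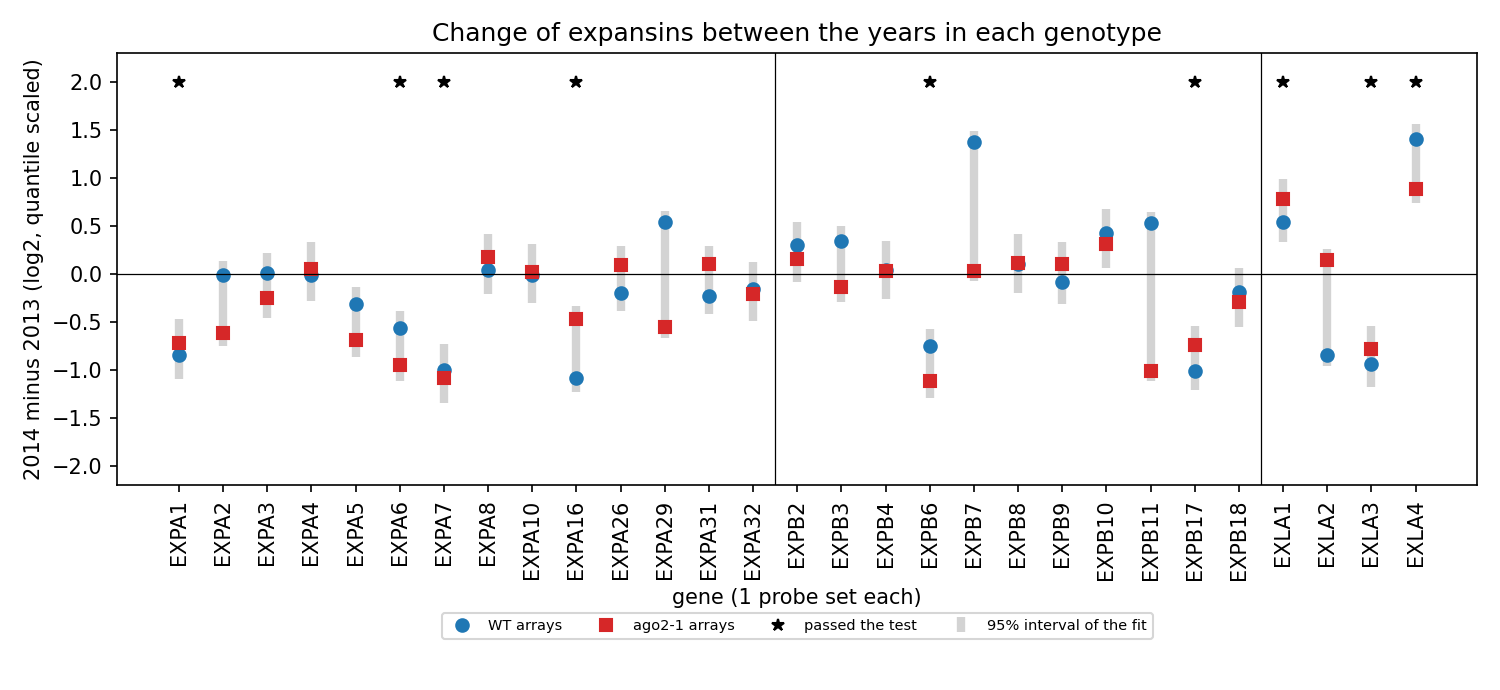
Change from 2013 to 2014 in log2 intensity after quantile scaling (vertical axis) of each expansin (horizontal axis), in WT (blue circles) and in ago2-1 (red squares); grey bars are the 95% interval of the limma fit and stars mark an adjusted p under 0.05. EXPA7 lies at −1.01 and −1.08 and EXLA4 at 1.41 and 0.89, and the widest gaps between the genotypes are those of EXPB11 and EXPB7.

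On the deposited scale, where the median change of all genes was 0.63, EXPA7, EXPA1, EXPB6, EXPB17 and EXLA3 were lower in 2014 in both genotypes. That held for 17.2% of expansins, 4.52% of probe sets and 5.17% of genes. Limma on that scale called 18 of 29 expansins, 17 higher and 1 lower (EXPA7), which is 62.1% against 80.5% of all probe sets and 77% of genes. Lower calls made up 3.45% of expansins, 2.31% of probe sets and 2.76% of genes. After quantile scaling, but without the WT array or without the ago2-1 array of 2014, limma passed 0 expansins and 0 probe sets (at an unadjusted p under 0.05, 8 of 29 expansins each, against 22.2% and 21.9% of probe sets). Those fits had no genotype term and 1 array of 2014. The falls of EXPA7 and EXPB17 are those of their bright probe sets. Further probe sets of these genes changed by 0.09 and −0.29 (EXPA7, adjusted p of 0.675 and 0.155) and by −0.08 (EXPB17, 0.644), so the change is not shown for every probe set of the gene.

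Other markers moved with the year as well. Summed over the list, the 4 green tissue markers had scaled intensities of 6110 on WT and 7060 on ago2-1 in 2013 and 26200 and 23600 in 2014, and all 4 rose. The 8 tapetum and pollen markers had 8560 and 6330 in 2013 and 5580 and 4170 in 2014, with 5 falling. The 11 young panicle markers had 24000 and 28200 in 2013 and 24000 and 27500 in 2014, with none changed by limma at an adjusted p of 0.05. The part of these shifts in the expansin changes was not tested.

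Other wall genes gave a background for these values. Of 9 cellulose synthases (CESA1 to CESA9), which build the microfibrils that expansins act on, 0 passed between the genotypes with limma and 2 fell between the years, with medians of −0.27 in 2013 and −0.23 in 2014 for ago2-1 against WT. Of 11 measured endoglucanase genes named GLU, 0 passed between the genotypes, and 1 rose and 2 fell between the years. By the same year fit, 12.2% of all probe sets and 11.3% of genes rose, and 11.1% and 10.8% fell. The pectin methylesterase inhibitor genes PMEI8 and PMEI28 did not pass between the genotypes or between the years. None of these genes, nor XTH8, a xyloglucan-modifying enzyme, nor the arabinogalactan protein gene AGP1, had an adjusted p under 0.5 between the genotypes in either limma fit. PMEI8 lay at 6.60 on the WT array of 2013 and at 8.33 for ago2-1 in that year, with 9.02 and 8.998 in 2014, so it too was low on the WT array of 2013. XTH8 was low on the ago2-1 array of 2013, with 11.31 for WT and 9.99 for ago2-1, against 11.31 and 11.01 in 2014.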

How the data were processed

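Intensities of 57194 probe sets on 4 arrays were used as the authors deposited them, on a linear scale; the method listed there, per the submitters' processing notes, is RMA, with the version not given in the sources used here. For analysis, log2 of these deposited values was used with no pseudocount. Probe sets were tied to genes by the platform's annotation and named through RefSeq (assembly ASM3414082v1), used for names and gene order only. Sequences of these genes are not printed here. The genotypes were compared with limma 3.58.1 in R 4.3.3 over the 4 arrays together with no block, and the years after quantile scaling with the genotype as a term, with p-values adjusted by Benjamini-Hochberg over every probe set. The code was tested on simulated data. The year stands in the titles and marks a shared season, so it pairs the arrays; across probe sets, what WT and ago2-1 each departed from their own mean in a given year went together (r = 0.77). Expansins, lists and markers were chosen with earlier results of these data known. Genes named in full are those past the threshold in a fit (up to 5 each way), the 5 alpha and 5 beta expansins of highest mean, the 3 largest mean differences each way and all EXLA genes; others are given as examples. Alternatives covered scaling, blocks, filters, prior variance, probe set choice, thresholds and leaving out arrays; the number of arrays limits the precision.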

Additional observations from a re-analysis of the deposited data

Results flagged for a closer look

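Several expansins moved in opposite directions in groups that share a contrast, by at least 0.1 log2 each way. With 1 array per genotype and year the difference was not tested for any of them. Between ago2-1 and WT, EXLA2 differed by −0.67 in 2013 and 0.31 in 2014, and EXPA2 by 0.43 and −0.19. From 2013 to 2014 after quantile scaling, EXPB11 changed by 0.53 in WT and −1.02 in ago2-1. EXPA29 changed by 0.54 and −0.56, EXLA2 by −0.84 and 0.15, and EXPB3 by 0.34 and −0.13. EXPA31, which was dim on every array, changed by −0.24 and 0.11.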

How the results depend on the processing

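Without a block, with the year as a replicate block, and under the other alternatives tried for that test, 0 of 29 expansins passed between the genotypes. The count of 0 that kept a 1.5-fold difference in both years was also 0 at 2-fold, after quantile scaling, with averaged probe sets and among probe sets above the median. The 6 expansins apart within 2013 stayed at a count of 6 after quantile scaling and after averaging each gene's probe sets, both chosen after seeing the data. Between the years the count of 9 (23.3% of all features called) became 18 on the deposited scale (17 higher, 1 lower; 80.5%), where the arrays of 2014 are brighter. It was 11 with median centring (26.7%), 10 with a trend in the prior variance (25.7%), 9 with cyclic loess (22.5%), 7 among probe sets above the median (17.4%), 7 without the genotype term (no replicate block; 16.2%) and 11 at a threshold of 0.1 (36.6%). When the test ran over 17905 genes with averaged probe sets, EXPA7 (−0.42, limma adjusted p = 0.0784) and EXPB17 (−0.48, 0.0668) were lost. The count there was 4 (10.9%), and EXLA1, EXPA6 and EXPA16, with 1 probe set each, were lost too at unchanged log2 values. With 1 array left out and no genotype term it was 0 to 7, namely 7 without the WT or the ago2-1 array of 2013 (8.75% and 14.5%) and 0 without either of 2014. The cause was not tested. On the deposited scale the sign of the year change turned for EXPA5 (0.12), EXPB11 (0.37), EXLA2 (0.28) and EXPA29 (0.63). It also turned for EXPA2 (0.33), EXPA3 (0.65), EXPA26 (0.59), EXPA31 (0.79), EXPA32 (0.65) and EXPB18 (0.78). None of these was called after scaling. Among the genes named in full, the sign turned for EXPA10 (−0.046) and EXPB4 (−0.0044) with median centring, and for EXPA10 (−0.029) with cyclic loess. Leaving out 1 array in turn, with no block and so with the years unbalanced, the genotype difference ranged from −0.031 to 1.94 for EXPB7, −0.63 to 0.13 for EXPB8 and −0.88 to 0.41 for EXPB10. The year change then ranged from −0.11 to 0.11 for EXPA10, −0.0058 to 0.078 for EXPB4, −0.12 to 1.53 for EXPB7, −0.094 to 0.30 for EXPB3, −1.07 to 0.59 for EXPB11, −0.62 to 0.60 for EXPA29 and −0.021 to 0.23 for EXPB8. The number of arrays, 2 per genotype, limits the precision of every value.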
